A study of Mus musculus with 39 samples.

Results

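Tretinoin and immune checkpoint therapy (ICT) were each given or withheld in mice bearing AB1-HA tumours, so that 39 tumours form a complete design of 2 treatments by 2. The question was whether tretinoin changes a gene by the same factor when ICT is also given. For each gene the interaction was computed as the tretinoin effect in the presence of ICT (Tretinoin+ICT minus ICT) minus the tretinoin effect in its absence (Tretinoin minus PBS), both as log2 fold changes. An interaction of 0 means that the effects multiply, a value below 0 that tretinoin raised the gene less, or lowered it more, when ICT was given, and a value above 0 the reverse. All 39 of the 39 tumours in the series were used, assigned by their treatment label: 10 in the PBS group, 9 in the Tretinoin group, 10 in the ICT group and 10 in the Tretinoin+ICT group.

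AB1-HA, a mesothelioma line of mouse origin that carries the haemagglutinin of influenza virus, was grown under the skin of adult BALB/c mice, and all 4 groups share this line. Tretinoin was injected at 5 mg/kg for 5 doses from day 4 after inoculation, ICT was 100 ug each of antibodies against CTLA-4 and PD-L1 on day 7, and tumours were resected on day 9. These are the values of the labels, and legends of the study differ from them in dose or number of doses. The PBS group received neither agent, and the 10 mice on both agents are labelled as 6 responders and 4 non-responders. Bulk tumour RNA was sequenced, with 14033046 to 37951183 counts per tumour. Each group holds 2 name series (tumours whose names share a first digit), and no name series spans 2 treatments, so name series and treatment cannot be told apart. Of 10 mesothelial and mesothelioma markers, 6 were in the count table and 2 passed the filter on low counts, so these genes are a weak check of the labelled tumour type. Summed skeletal muscle, fat and skin markers overlapped between all 4 groups, and muscle markers reached from 402 to 4189 CPM (counts scaled to a library of a fixed size) across tumours. In bulk RNA, fewer cells of a type and less RNA per cell cannot be told apart.

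Tretinoin is all-trans retinoic acid, which enters the nucleus, binds retinoic acid receptors (RARs) paired with retinoid X receptors, and changes transcription from DNA elements that are built from short repeats. Cells limit the signal by inducing enzymes that remove it, among them Cyp26 hydroxylases, which degrade retinoic acid, and Dhrs3, which reduces its precursor retinaldehyde to retinol. Antibodies to CTLA-4 and PD-L1 release T cells from inhibition, and the interferon gamma those cells make induces antigen presentation and chemokine genes in the tissue around them.

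When ICT was also given, tretinoin raised 40 genes less than it did alone, and it lowered 6 genes less. The interaction passed in these 46 of 14977 genes tested (0.307% of all genes, 0.267% below 0 and 0.0401% above 0; edgeR's quasi-likelihood test, Benjamini-Hochberg adjusted p below 0.05). The largest interaction in size, -6.91 log2 for the pseudogene Rpl35a-ps4, rests on a few tumours with high counts. Next by size among named genes of sufficient level, the genes raised less were Cyp26b1, the R-spondin receptor gene Lgr6, the heat shock gene Hspa1a, Dhrs3, Adm and Pitpnc1. Those lowered less were Tnfaip6, Sele, Trps1, Arhgap6, Hdac9 and Phf13. In all 46, the change with tretinoin alone passed the same test (14.5% of all genes, 8.87% higher and 5.64% lower) and was opposite in sign to the interaction, and the change with tretinoin in the presence of ICT was nearer to 0. In 38 of the 46 the second change did not pass, in 8 it passed in the same direction (4.95% of all genes passed), and in none did it pass in the opposite direction. Since the interaction contains the change with tretinoin alone, these counts describe the genes and are not separate evidence. The median change of the 40 genes was 0.69 log2 with tretinoin alone and 0.10 with tretinoin in the presence of ICT, and that of the 6 genes was -0.53 and 0.05. Over all genes tested the median interaction was -0.02, and 1415 genes (9.45%) had an unadjusted p below 0.05, 828 of them below 0 and 587 above.

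**Figure D1:**
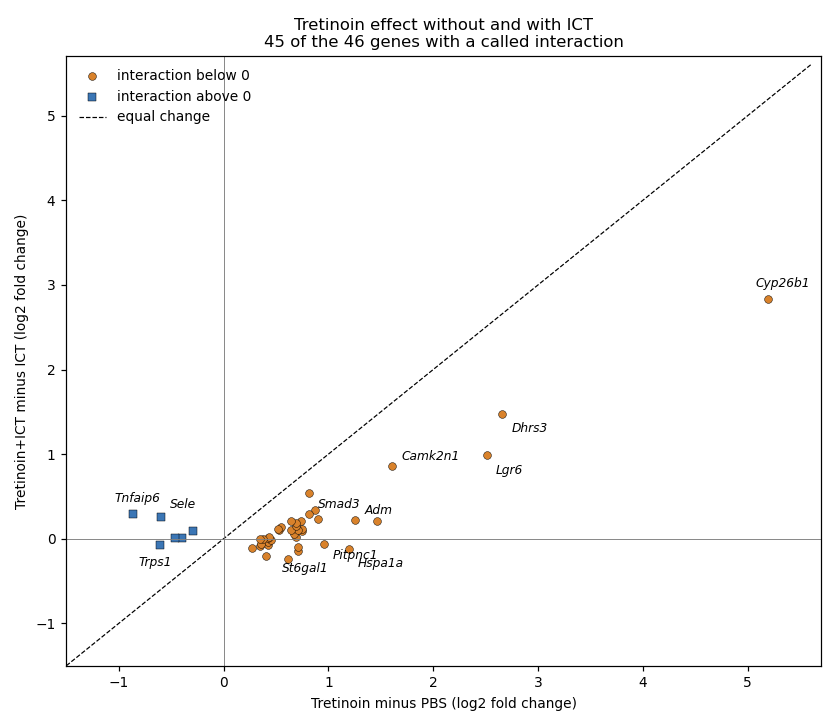
The log2 fold change with tretinoin alone (horizontal) is plotted against that with tretinoin in the presence of ICT (vertical) for 45 of the 46 genes with a called interaction; the pseudogene Rpl35a-ps4 is left out. Genes raised by tretinoin lie to the right and below the dashed line of equal change, most of them near 0 on the vertical axis, and the 6 genes lowered by tretinoin lie to the left and above it.

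The change with ICT alone did not pass in 31 of the 46 genes (17.9% of all genes passed). Between Tretinoin+ICT and Tretinoin, 34 of the 40 genes were lower (13.3% of all genes) and all 6 of the others were higher (14.6%). In 12 of the 40 genes every Tretinoin tumour was above every tumour of the other 3 groups, an arrangement found in 0.187% of all genes. In 14 of the 40 they were all above the Tretinoin+ICT tumours (0.381% of all genes). The same tumours chose the genes, so these counts describe them and are not separate evidence. The interaction had the same sign in 46 of 46 genes in each of the 16 ways of taking 1 name series from each treatment (22.8% of all genes kept 1 sign in this way), and also in 46 of 46 on the linear scale of mean CPM, in the same tumours that chose the genes. How many genes pass depends on which tumours are kept: 25 of the 46 passed in every fit that left out 1 tumour. Of the 8 fits that each left out 1 name series, 34 of the 46 genes passed in 4 or fewer, 9 of them in none, and 7 passed in every one. Those 7 are Cyp26b1, Dhrs3, Lgr6, Pitpnc1, Smad3, Smyd4 and St6gal1. Leaving out a name series gave 8 to 39 called genes, and with counts summed over each name series, which leaves 2 values per treatment, 3 genes passed, of which 2, Lgr6 and Pitpnc1, are among the 46. Cyp26b1, Dhrs3, Smad3, Smyd4 and St6gal1 did not pass in that fit. Leaving out PBS replicate 1 gave 29 genes, and PBS replicate 5, Tretinoin+ICT replicate 3, Tretinoin replicate 5 or Tretinoin replicate 7 gave 30 each.

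The promoters of the 2 genes with the smallest interaction p, one an enzyme of retinoid metabolism and one a lipid transfer protein, are shown to set out the sequence that was searched for retinoic acid response elements. They are the 250 bases before the RefSeq gene start, on GRCm38.p6, written 5′ to 3′ on the strand of the gene, at chr4:144892577-144892826 on the plus strand for Dhrs3 and chr11:107470721-107470970 on the minus strand for Pitpnc1. Capitals would mark a half-site, AGGTCA or AGTTCA on either strand, and neither stretch holds one.
Dhrs3: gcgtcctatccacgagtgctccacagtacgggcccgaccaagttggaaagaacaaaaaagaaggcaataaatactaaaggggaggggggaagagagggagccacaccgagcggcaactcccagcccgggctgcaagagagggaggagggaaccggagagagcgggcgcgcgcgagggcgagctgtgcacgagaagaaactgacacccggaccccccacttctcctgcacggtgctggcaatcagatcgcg
Pitpnc1: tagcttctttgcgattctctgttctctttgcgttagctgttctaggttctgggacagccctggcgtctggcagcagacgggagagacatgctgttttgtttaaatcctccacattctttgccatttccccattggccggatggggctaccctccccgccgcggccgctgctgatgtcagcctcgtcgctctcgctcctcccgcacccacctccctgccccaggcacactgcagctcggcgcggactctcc
Of the 46 genes, 36 had an entry in the RefSeq promoter table, with 50 windows of 300 bases that run from 250 before to 50 after the start. Direct repeats of the half-site core, GGTCA or GTTCA, at the spacings known as DR5 (the letters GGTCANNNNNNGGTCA and the 3 other pairs of these cores, on both strands), DR2 (GGTCANNNGGTCA and so on) and DR1 (GGTCANNGGTCA and so on) were found in none of the 50. Among all 32851 windows, 0.247% held a DR5, 0.399% a DR2 and 0.402% a DR1. A single half-site was present in 18 of the 50 windows (36%) and in 27.7% of all windows. These letters describe the windows searched and say nothing of elements elsewhere in the genes.

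Cyp26b1 and Dhrs3, enzymes that clear retinoids, were raised by tretinoin in both conditions and less so with ICT. Cyp26b1 (chr6:84571414-84593908 on GRCm38) was at a median of 8.33 CPM (5.48 to 11.7) in PBS tumours, 318 CPM (240 to 384) in Tretinoin tumours, 15.9 CPM (6.45 to 32.8) in ICT tumours and 120 CPM (53.2 to 170) in Tretinoin+ICT tumours. Every Tretinoin tumour was above every Tretinoin+ICT tumour, and these in turn were above every tumour not given tretinoin. The fold change was 36.5 with tretinoin alone and 7.13 in the presence of ICT, and the interaction was -2.36 log2 (SE 0.29, 95% interval -2.95 to -1.76, edgeR adjusted p = 5.87e-06). ICT by itself raised Cyp26b1 by 1.08 log2 (adjusted p = 0.000926), while adding ICT to tretinoin lowered it, by -1.27 log2 (adjusted p = 3.03e-05).

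Dhrs3 (chr4:144892827-144928209) had the same order of groups. Its median was 44.8 CPM (36.8 to 52.1) in PBS, 273 CPM (254 to 324) in Tretinoin, 59.8 CPM (43 to 74.8) in ICT and 167 CPM (112 to 203) in Tretinoin+ICT tumours. The ranges of the groups given tretinoin overlapped neither each other nor the remaining groups. A 6.32-fold increase with tretinoin alone became a 2.78-fold increase with ICT, for an interaction of -1.18 log2 (SE 0.13, 95% interval -1.45 to -0.92, edgeR adjusted p = 3.37e-07).

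Of the other retinoid metabolism and binding genes, none passed. The list has 15 genes tested, of which 2 had a called interaction below 0, and the list's median interaction was -0.002. With tretinoin on average over both ICT conditions, 7 were higher and 2 lower. By that test, without a fold minimum, 13.9% of all genes were higher and 11.9% lower. Apart from the study's own interferon list, the gene lists here were chosen with earlier results of these data known. Their counts describe the members and are not separate evidence. Lrat, which stores retinol as esters, rose 4.33 log2 with tretinoin on average (edgeR adjusted p = 3.0e-11), with medians of 0.0525, 2.54, 0 and 0.52 CPM in PBS, Tretinoin, ICT and Tretinoin+ICT tumours. Its interaction was -1.17 log2 (interval -3.33 to 0.996). Stra6, the membrane receptor for retinol binding protein, had an interaction of -0.71 (interval -1.29 to -0.13, adjusted p = 0.388), and its Tretinoin tumours (33.4 to 76.3 CPM) overlapped the ICT group, whose highest tumour was at 37.9 CPM. For Crabp2, which carries retinoic acid to the nucleus, the increase was 1.59-fold alone and 1.47-fold with ICT, with an interaction of -0.12 (interval -0.36 to 0.13). Aldh1a2, which makes retinoic acid, had the opposite sign, 0.30 (interval -0.52 to 1.12). Both Crabp2 (-0.36 log2, edgeR adjusted p = 1.7e-05) and Stra6 (-0.84 log2, adjusted p = 2.6e-05) were lower with ICT on average over both tretinoin conditions.

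Receptors and known targets gave no called interaction. Among 10 receptor and coregulator genes tested, 8 had an interaction below 0 (55.1% of all genes did), with a median of -0.15. The receptor gene Rarg rose 1.92-fold with tretinoin alone and 1.48-fold with ICT, from medians of 94.3 CPM in PBS and 88.8 CPM in ICT tumours to 189 CPM and 136 CPM, and its interaction of -0.37 (interval -0.59 to -0.16) did not pass after adjustment (p = 0.143). In the list of 15 known retinoic acid targets, 10 were higher with tretinoin on average (13.9% of all genes were) and none lower. Of the 15, 13 had an interaction below 0, with a median of -0.21. Hic1, a transcriptional repressor, rose 2.89-fold alone and 2.49-fold with ICT (interaction -0.21, interval -0.67 to 0.24). Tgm2, a transglutaminase, rose 3.93-fold alone and 2.72-fold with ICT, and its interaction was -0.53 on the log2 scale (interval -1.12 to 0.06) but 30.5 CPM on the linear scale (SE 119).

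**Figure D2:**
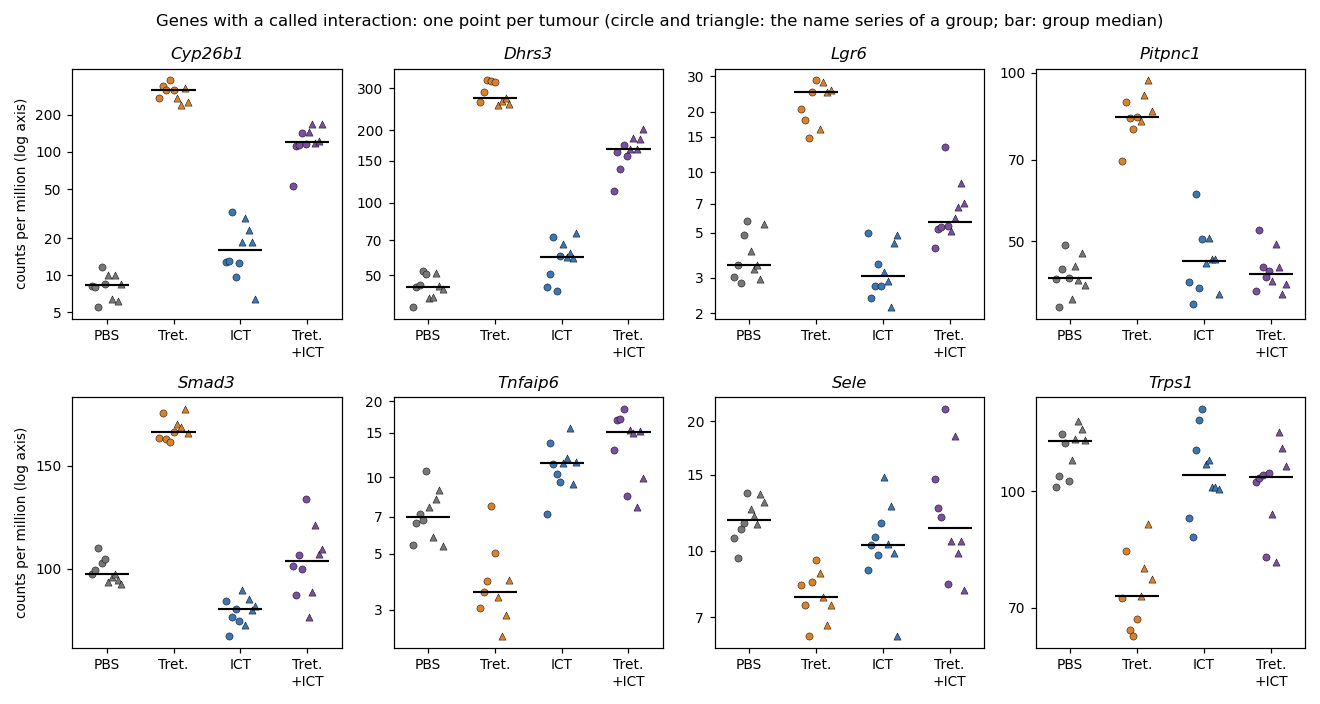
Each point is 1 tumour, in CPM on a log axis, for 8 genes with a called interaction; circles and triangles separate the name series of a group and the bar is the group median. For Pitpnc1 the Tretinoin tumours (69.7 to 97.1 CPM) stand above all others while the Tretinoin+ICT tumours lie within the range of the untreated and ICT tumours, and for Tnfaip6 the Tretinoin tumours are the lowest group.

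Pitpnc1, outside retinoid metabolism, had the smallest interaction p of the 14977 genes. It encodes a phosphatidylinositol transfer protein (chr11:107207892-107470699). Medians were 43 CPM (38.1 to 49.3) in PBS, 83.5 CPM (69.7 to 97.1) in Tretinoin, 46.1 CPM (38.6 to 60.8) in ICT and 43.7 CPM (40.3 to 52.4) in Tretinoin+ICT tumours. All 9 Tretinoin tumours were above every other tumour, and the other 3 groups overlapped. The fold change with tretinoin was 1.94 alone and 0.961 with ICT, and the interaction was -1.01 log2 (SE 0.09, 95% interval -1.20 to -0.83, edgeR adjusted p = 3.07e-09). An overlapping RNA on the opposite strand, Gm11714, had medians of 0.19 to 0.927 CPM in the 4 groups, and whether counting used strand is not given.

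Lgr6 encodes a receptor that strengthens Wnt signals (chr1:134983301-135105276). It was at a median of 3.47 CPM (2.83 to 5.72) in PBS, 25 CPM (14.7 to 28.7) in Tretinoin, 3.06 CPM (2.14 to 4.98) in ICT and 5.67 CPM (4.2 to 13.3) in Tretinoin+ICT tumours. The Tretinoin tumours overlapped no other group. The increase was 5.69-fold alone and 1.98-fold with ICT, and the interaction was -1.52 log2 (SE 0.26, 95% interval -2.05 to -0.99, edgeR adjusted p = 0.00173). Keratinocyte markers summed to 1.56 to 8.91 CPM in PBS, 0.75 to 13.3 CPM in Tretinoin, 1.47 to 22.4 CPM in ICT and 1.45 to 47.4 CPM in Tretinoin+ICT tumours. Whether skin in the samples bears on Lgr6 was not tested.

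Smad3, Smyd4, Smg6, Adamts14, Rbpms and Rin2 were named after their values were seen, for their small p. Smad3 carries the signal of transforming growth factor beta from its receptor to the nucleus (chr9:63646767-63757994). Its medians were 97.9 CPM (94.1 to 108) in PBS, 172 CPM (165 to 188) in Tretinoin, 85.3 CPM (76.7 to 91.9) in ICT and 103 CPM (82.9 to 132) in Tretinoin+ICT tumours. No Tretinoin tumour overlapped another group. The increase was 1.75-fold alone and 1.22-fold with ICT, and the interaction was -0.52 log2 (SE 0.07, 95% interval -0.67 to -0.37, edgeR adjusted p = 9.42e-05). The interactions of the other 5 were -0.61 for Smyd4, -0.55 for Smg6, an endonuclease of nonsense-mediated decay, -0.64 for Adamts14, a procollagen protease, -0.54 for the RNA binding protein gene Rbpms and -0.42 for Rin2, with adjusted p from 0.000753 to 0.00251. In these 5 genes the change with tretinoin passed alone, from 0.43 to 0.75 log2, and did not pass with ICT, from 0.01 to 0.16 log2.

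Among genes of sufficient level with no predicted or pseudogene name, 4 others were in the 10 most negative interactions. St6gal1, which adds sialic acid to glycoproteins, was at medians of 29.3 CPM in PBS, 45.1 CPM in Tretinoin, 30 CPM in ICT and 26 CPM in Tretinoin+ICT tumours, with an interaction of -0.85 (edgeR adjusted p = 0.000569). Camk2n1, an inhibitor of calmodulin-dependent kinase, rose 3.05-fold alone and 1.81-fold with ICT (interaction -0.75, adjusted p = 0.00769), and its Tretinoin tumours (15 to 27.7 CPM) were above every other tumour. Bach2, a transcription factor of lymphocytes, had an interaction of -0.80 (adjusted p = 0.00782), and its antisense RNA Bach2os, which overlaps it, -0.67; without strand their reads cannot be told apart. Cd101, a leukocyte surface protein gene, had -0.85 (adjusted p = 0.028) and passed in 0 of the 8 fits that left out a name series.

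In Adm and Hspa1a each agent alone raised the gene, and the change with tretinoin in the presence of ICT did not pass. Adm, the vasodilator peptide adrenomedullin, was at medians of 6.27 CPM (5.42 to 7.69) in PBS, 15 CPM (13.1 to 18.3) in Tretinoin, 12.6 CPM (9.83 to 22.5) in ICT and 17.6 CPM (10.9 to 25.9) in Tretinoin+ICT tumours. Each treated group was above every PBS tumour, and the 3 treated groups overlapped. Tretinoin alone raised Adm by 1.26 log2 and ICT alone by 1.20, and the interaction was -1.04 (SE 0.19, 95% interval -1.42 to -0.65, edgeR adjusted p = 0.00353). Hspa1a, an inducible chaperone, had medians of 3.7, 7.35, 8.99 and 7.89 CPM in PBS, Tretinoin, ICT and Tretinoin+ICT tumours and an interaction of -1.31 (adjusted p = 0.0391). The call on Hspa1a held in 16 of 39 fits that left out a tumour and in 2 of 8 that left out a name series, and neither with limma voom nor with no filter on low counts. Its near-identical copy Hspa1b had -0.91 (adjusted p = 0.14), and reads of the 2 genes may be split uncertainly. In 11 of the 40 genes raised less, both tretinoin alone and ICT alone passed as higher (13.3% of all genes were higher with ICT alone).

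The 6 genes with an interaction above 0 were lowered by tretinoin alone, and their change with tretinoin in the presence of ICT did not pass. Tnfaip6, a hyaluronan-binding protein of inflamed tissue (chr2:52038009-52056686), was at medians of 6.97 CPM (5.37 to 10.6) in PBS, 3.53 CPM (2.36 to 7.73) in Tretinoin, 11.4 CPM (7.18 to 15.7) in ICT and 15.1 CPM (7.67 to 18.7) in Tretinoin+ICT tumours. Tretinoin tumours overlapped every group, by 1 or more tumours. The fold change with tretinoin was 0.549 alone and 1.22 with ICT, and the interaction was 1.15 log2 (SE 0.25, 95% interval 0.65 to 1.66, edgeR adjusted p = 0.0231). The call on Tnfaip6 held in 39 of 39 fits that left out a tumour, but in only 2 of 8 that left out a name series. It did not hold with counts summed over each name series. Sele, the endothelial adhesion molecule E-selectin, was at 11.8, 7.82, 10.3 and 11.3 CPM in PBS, Tretinoin, ICT and Tretinoin+ICT tumours, and every PBS tumour (9.61 CPM or more) was above every Tretinoin tumour (9.5 CPM or less). Its interaction was 0.86 (interval 0.46 to 1.25, adjusted p = 0.0378). Of the other 11 endothelial genes tested none had a called interaction, and 9 of the 12 were higher with tretinoin on average, against 13.9% of all genes. Sele itself was called in 1 of 8 fits that left out a name series and in 24 of 39 that left out a tumour, and not by limma voom.

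The remaining 4 are regulators with smaller changes. Trps1, a GATA-type repressor, fell from a median of 117 CPM (101 to 124) in PBS to 72.5 CPM (64.1 to 90.6) in Tretinoin tumours, without overlap, while ICT and Tretinoin+ICT tumours shared a median of 105 CPM. The interaction was 0.53 log2 (SE 0.10, edgeR adjusted p = 0.00554). Hdac9, a histone deacetylase, had 0.41 (adjusted p = 0.00782), Arhgap6, a GTPase activating protein, 0.47 (adjusted p = 0.0367), and Phf13, which binds methylated histones, 0.38 (adjusted p = 0.0271). Of the 8 fits that left out a name series, Trps1 passed in 5, Hdac9 and Arhgap6 in 3 each and Phf13 in 1. Arhgap6 and Phf13 did not pass with no filter on low counts.

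A second way to ask the question starts from genes that either agent changed on average over both levels of the other, a contrast nearly independent of the interaction (their correlation from the group sizes is -0.03 for tretinoin, against -0.72 for Tretinoin minus PBS). By this test tretinoin raised 165 genes and lowered 28 (edgeR adjusted p below 0.05 and at least 1 log2; 1.1% of all genes higher, 0.187% lower and 1.29% in all). Of the 193, 4 had a called interaction (0.307% of all genes did), Cyp26b1, Dhrs3, Lgr6 and Camk2n1, each with a smaller change in the presence of ICT, and none had a larger one. The median change of the 165 was 1.52 log2 with tretinoin alone and 1.14 with ICT. Against 55.1% of all genes, 126 of the 165 (76.4%) had an interaction below 0. On the linear scale of mean CPM, 54 of the 165 did. No share of all genes is given here for that scale, so this count cannot be weighed against the one on the log2 scale. Without the fold minimum, 35 of 2082 genes raised by tretinoin and 3 of 1779 lowered had a called interaction, all with a smaller change in the presence of ICT, against 0.267% of all genes called below 0 and 0.0401% above 0.

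ICT raised 331 genes and lowered 15 on average (2.21%, 0.1% and, in all, 2.31% of genes), and in 1 of the 346, Tnfaip6, the interaction passed, with a larger ICT effect when tretinoin was given (1.78 log2 against 0.62), a share near the 0.307% of all genes. The median change of the 331 was 1.38 log2 with ICT alone and 1.25 with ICT added to tretinoin. Of the 331, 204 (61.6%) had an interaction below 0 on the log2 scale, against 55.1% of all genes. On the linear scale 66 did, for which no share of all genes is given here. Without the fold minimum, 3 of 3295 genes higher with ICT had a called interaction with a smaller ICT effect and 3 a larger one. Of 2911 genes lower with ICT on average, 26 had a called interaction below 0. Over all genes 0.307% were called, 0.267% below 0. These 26 were mostly not lowered by ICT alone. Among all 40 genes called below 0, the change with ICT alone passed as lower in 1 and as higher in 11, and did not pass in 28. Both agents raised 62 genes in these sets. None had a called interaction. Of the 62, 49 had an interaction below 0, against 55.1% of all genes, and the median was -0.54. On the linear scale 58 of the 62 had an interaction above 0. There, 2 increases that multiply give a value above 0 by arithmetic, so that count follows largely from the choice of genes.

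**Figure D3:**
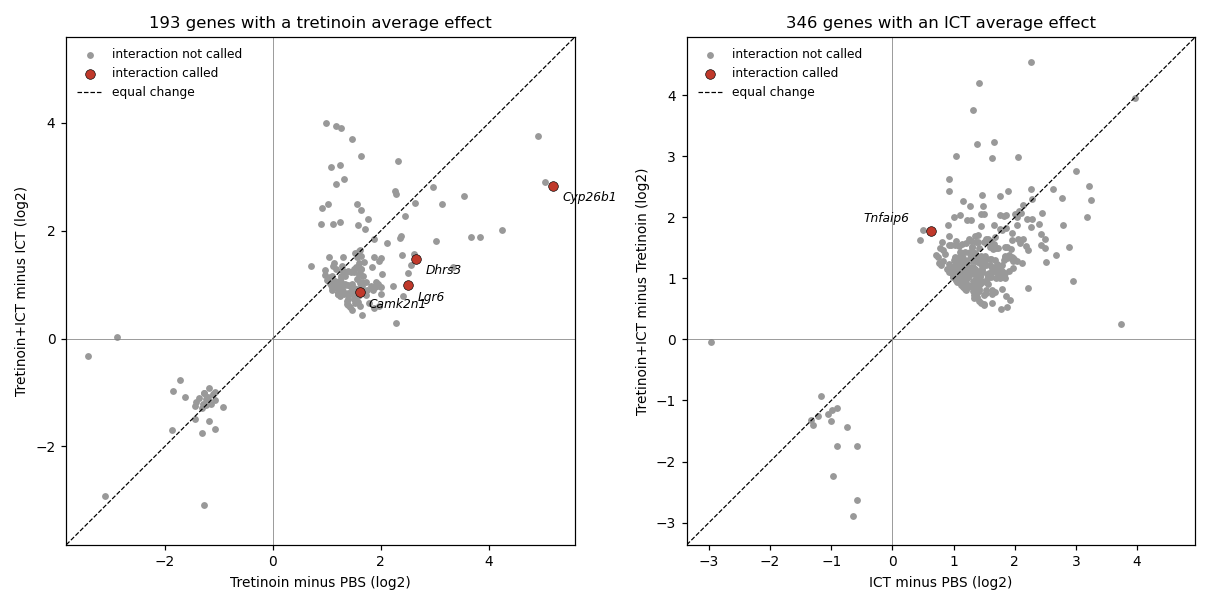
Log2 fold changes alone (horizontal) and with the other agent (vertical) for the 193 genes with a tretinoin average effect (left) and the 346 with an ICT average effect (right); the dashed line marks equal change. Red points are the called interactions, 4 on the left, all below the line, and Tnfaip6 on the right, above it.

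The genes most changed by tretinoin on average had intervals of several log2 units in some cases. Inmt, a methyltransferase, rose 33-fold with tretinoin alone and 7.47-fold with ICT, at medians of 0.362, 10.9, 0.414 and 2.92 CPM in PBS, Tretinoin, ICT and Tretinoin+ICT tumours, and its interaction of -2.14 (interval -3.21 to -1.08) missed the threshold (edgeR adjusted p = 0.0664). The hair-related genes Krt72, Krtap15 and Prr9 had medians of 0 in 3 groups and interactions of -0.63, 2.78 and 0.47 with intervals reaching from -4.53 to 6.88. Hpgd, which breaks down prostaglandins, fell to 0.305 of PBS with tretinoin alone and to 0.588 of ICT (interaction 0.94, interval 0.36 to 1.53, adjusted p = 0.202). Amd2 had 3.11 (interval 0.55 to 5.67, adjusted p = 0.395), with single tumours reaching 61 CPM over a PBS median of 1.7 and a paralogue that shares its sequence.

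Osteoclast-related genes were lower with tretinoin, and none had a called interaction. All 8 list members tested were lower with tretinoin on average (11.9% of all genes were lower), with a median change of -1.19 log2 alone and -1.20 with ICT. With ICT on average none of the 8 passed as higher or lower (22% and 19.4% of all genes did). The list was chosen with earlier results of these data known, so these counts describe its members and are not separate evidence. Acp5, the phosphatase of osteoclasts, was at medians of 151, 50.7, 137 and 51.8 CPM in PBS, Tretinoin, ICT and Tretinoin+ICT tumours, and its interaction was -0.07 with an interval of -1.17 to 1.02. Ctsk, a collagen-degrading protease, had -0.06 (interval -1.01 to 0.88), Atp6v0d2, a proton pump subunit, 0.18 (interval -0.87 to 1.24), Slc9b2, an ion exchanger, -0.04 (interval -1.46 to 1.39) and Rufy4 0.53 (interval -0.53 to 1.59). These intervals leave room for differences near 1 log2.

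Among interferon and antigen presentation genes no interaction passed, and most members of these lists were higher with ICT on average, fewer with tretinoin. Of the 82 interferon stimulated genes of the study that were tested, 51 were higher and 2 lower with tretinoin on average and 78 were higher with ICT. Over all genes, 13.9% were higher and 11.9% lower with tretinoin, 22% were higher with ICT and 55.1% had an interaction below 0. These are the shares to set beside the next counts too. Of the 82, 62 had an interaction below 0, with a median of -0.11. The list is the study's own and is not independent evidence of a direction. Genes of interferon gamma and chemokines had a median interaction of -0.34 with 13 of 14 below 0, MHC class II genes -0.39 with 8 of 8, MHC class I genes -0.23 with 9 of 10, and CD8 and cytotoxic effectors -0.26 with 8 of 8. Of the MHC class II genes 5 of 8 were higher with tretinoin on average and 7 with ICT, and of the CD8 and cytotoxic genes 3 of 8 and 4. For MHC class II, the median change with tretinoin was 0.93 log2 alone and 0.38 with ICT. The 2 Tretinoin name series differed for the member H2-Ab1, with means of 516 CPM in series 3 and 251 CPM in series 7. Its means in the PBS series 1 and 5 were 203 and 175 CPM. The members of a list share tumours and often cell types, so these counts are not independent.

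Single genes of these groups had wide intervals. H2-Ab1, an MHC class II chain, was at medians of 167, 332, 395 and 646 CPM in PBS, Tretinoin, ICT and Tretinoin+ICT tumours, and its interaction was -0.77 (interval -1.76 to 0.21). Cxcl9, a chemokine for T cells, had -0.68 (interval -2.02 to 0.66), Cd274, which encodes PD-L1, -0.55 (interval -1.78 to 0.68) and Irf1, an interferon-induced transcription factor, -0.18 (interval -0.92 to 0.55). The medians of Irf1 were 216 CPM in PBS, 395 CPM in Tretinoin, 493 CPM in ICT and 795 CPM in Tretinoin+ICT tumours. On the linear scale the interactions of Cxcl9, Cd274 and Irf1 were above 0, at 78.5, 42.8 and 137 CPM, each smaller than or close to its standard error of 230, 70.3 and 134 CPM. Pdcd1lg2, which encodes PD-L2, had -1.18 (interval -2.89 to 0.54), and Cd8a -0.69 (interval -1.71 to 0.34). Mean Pdcd1lg2 was 23.6 and 5.24 CPM in Tretinoin name series 3 and 7, and 4.02 and 3.68 CPM in PBS series 1 and 5.

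Among myeloid and inflammatory genes most raised by ICT, the interaction was -0.24 for Nos2 (interval -1.95 to 1.46), -0.95 for the coagulation factor gene F10 (interval -2.46 to 0.56) and -0.17 for Chil3, a lectin of alternatively activated macrophages (interval -1.97 to 1.62). Its medians were 1.29 CPM in PBS, 4.21 CPM in Tretinoin, 7.68 CPM in ICT and 37.6 CPM in Tretinoin+ICT tumours. The Tretinoin name series 3 and 7 differed, with Chil3 means of 13.9 and 1.89 CPM, against 1.5 and 1.63 CPM in PBS series 1 and 5. Ccl24, an eosinophil chemokine, had 0.93 (interval -0.37 to 2.24), with a change of 1.55 log2 with tretinoin alone and 2.49 with ICT. The cytokine genes Il1a, Csf2 and Tnf had -0.47, -0.22 and -0.10, with intervals from -1.75 to 0.90 over the 3. Neutrophil genes were higher with ICT on average in 7 of 8, against 22% of all genes, and none had a called interaction.

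Among genes lower with ICT on average, none had a called interaction at the fold minimum. Foxp3, the regulator of regulatory T cells, changed by -0.80 log2 with ICT alone and -0.73 log2 with ICT added to tretinoin, both past the test, with an interaction of 0.07 (interval -0.42 to 0.56). Izumo1r, a folate receptor of regulatory T cells, Dio3, a deiodinase, and Ptn, a growth factor, had interactions of -0.11, -0.02 and -0.15, with intervals from -1.15 to 0.84 over the 3. Tspan18, a tetraspanin, had -0.85 (interval -1.40 to -0.29, edgeR adjusted p = 0.24), at medians of 5.19, 11.6, 2.81 and 3.74 CPM in PBS, Tretinoin, ICT and Tretinoin+ICT tumours, with a tretinoin effect of 1.02 log2 alone and 0.17 with ICT. Outside this set, Ptprc, which encodes the leukocyte antigen CD45, had an interaction of 0.01 (interval -0.56 to 0.58). Its means were 388 and 354 CPM in the ICT name series and 247 and 253 CPM in the PBS series. The proliferation gene Mki67 had -0.07 (interval -0.38 to 0.24).

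**Figure D4:**
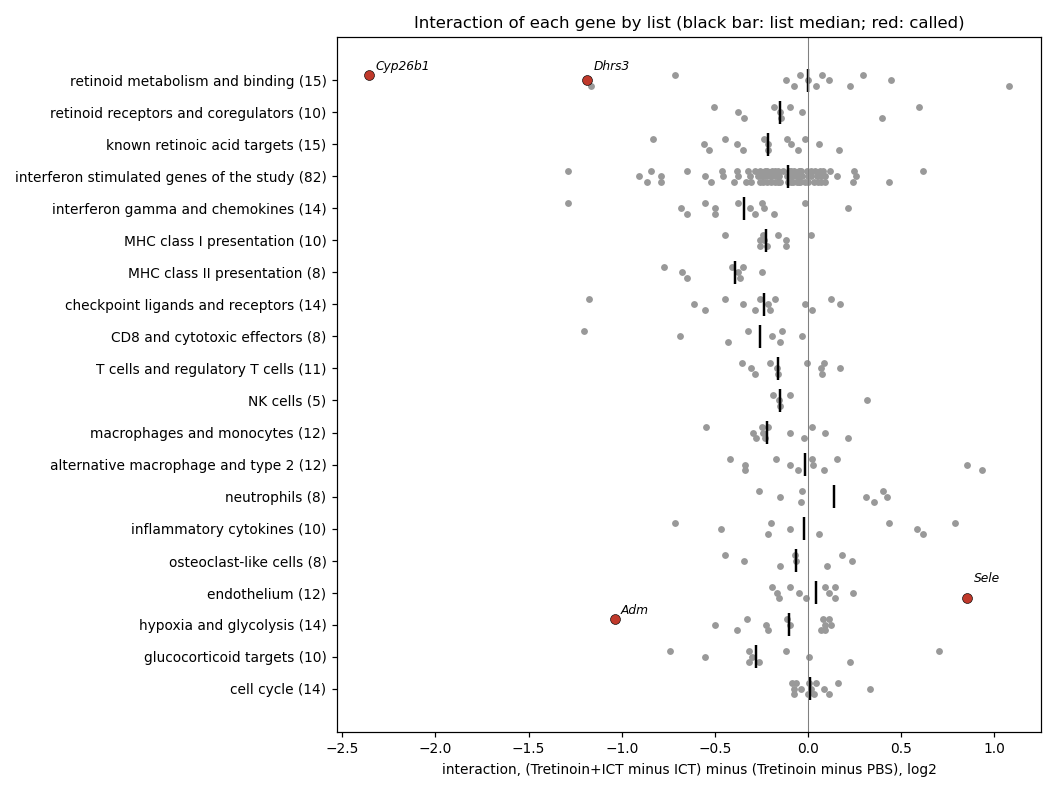
The log2 interaction of each gene tested (points) in 20 gene lists, with the list median as a black bar, the number of genes in brackets and called interactions in red. The called genes are Cyp26b1, Dhrs3, Sele and Adm, and the medians of the MHC class II and of the interferon gamma and chemokine lists lie at -0.39 and -0.34.

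Other gene groups were higher or lower with ICT on average over both tretinoin conditions. Hypoxia and glycolysis genes were higher in 14 of 14 (22% of all genes were, the share to set beside the next counts too), and Adm was the single one with a called interaction. Glucocorticoid targets were higher with ICT in 9 of 10, Per1 by 2.13 log2 and Tsc22d3 by 1.47 log2, with interactions of -0.32 and -0.30 that did not pass. Macrophage and monocyte genes were higher with ICT in 12 of 12, and fibroblast and matrix genes lower in 9 of 11 (19.4% of all genes were lower). The part of these shifts in the called interactions was not tested.

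**Figure D5:**
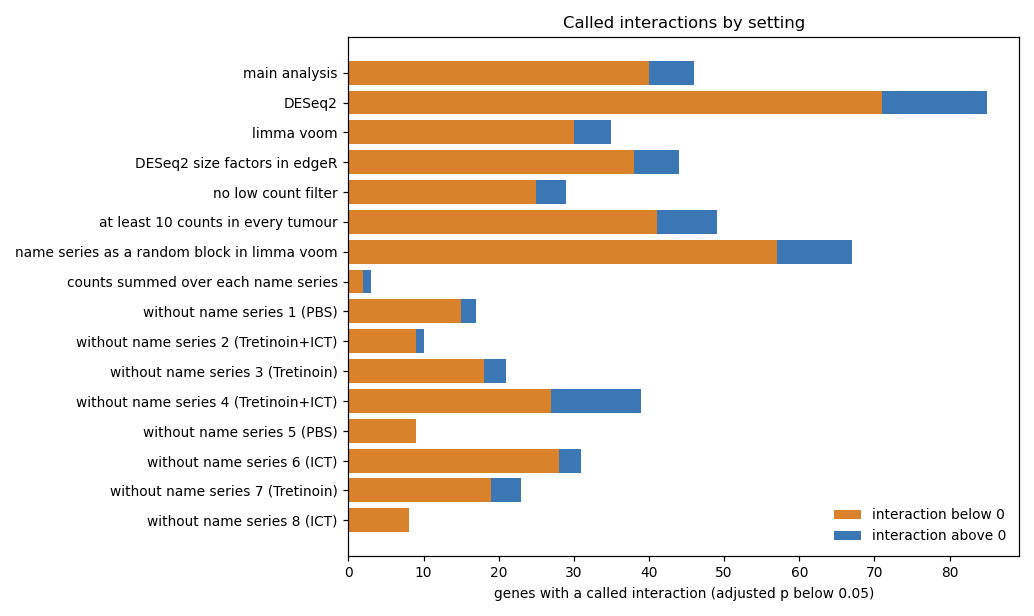
Number of genes with a called interaction in the main analysis and under 15 other settings, divided by the sign of the interaction. The count reaches from 3 with counts summed over each name series to 85 with DESeq2, and genes with an interaction below 0 are the larger share in each.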

How the data were processed

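Bulk RNA of 39 tumours was sequenced as single-end reads. Per the labels and the study's methods, the authors aligned reads with HISAT2 2.0.4 to a genome named mm11 and counted them per gene with SummariseOverlaps; demultiplexing used bcl2fastq 2.20.0.422, and strand and multimapping settings are not given in the sources used here. The deposited values are raw counts per gene, 14033046 to 37951183 per tumour. Genes passing a low-count filter (14977) were fitted with edgeR 4.0.16 (R 4.3.3; TMM, quasi-likelihood, 4 groups, Benjamini-Hochberg adjustment), with all contrasts from that 1 fit. DESeq2 1.42.0 and limma 3.58.1 served as alternatives. CPM are edgeR's. Intervals are 95% and per gene; coordinates are from GENCODE M21 on GRCm38, which matched 36719 of 39676 identifiers. Statistics were tested on simulated data. One tumour was resected per mouse, so replicates are mice; what a name series stands for is not given.

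Named genes were, among those with a mean log2 CPM of at least 1 and no predicted or pseudogene name, up to 10 called interactions in each direction, the 5 largest average effects in each direction for each agent, and 30 fixed genes, of which Cyp26a1, Rarb, Ifng, Gzmb and Arg1 are not analysed here and 1 other is not reported here. Members and gene lists were chosen with earlier results of these data known.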

Additional observations from a re-analysis of the deposited data

Results flagged for a closer look

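In 14 of 244 groups of tumours examined (61 genes, 4 groups each; 5.74%) the highest or lowest tumour lay apart from the rest by Dixon's criterion on log2 CPM, which by chance marks about 1 in 20 groups. Tretinoin+ICT replicate 1 stood apart for Cyp26b1 (53.2 CPM, nearest 112 CPM). ICT replicate 7 stood apart for Bach2 (14.6 CPM, nearest 9.92 CPM) and Krt72 (8.91 CPM, nearest 0.61 CPM) and Krtap15 (7.46 CPM, nearest 0.185 CPM). Tretinoin+ICT replicate 9 stood apart for Arhgap6 (14.1 CPM, nearest 12.1 CPM). ICT replicate 4 stood apart for Arhgap6 (14.8 CPM, nearest 11.8 CPM). Tretinoin replicate 2 stood apart for Inmt (24.8 CPM, nearest 13.7 CPM). Tretinoin+ICT replicate 5 stood apart for Amd2 (26 CPM, nearest 1.74 CPM). ICT replicate 9 stood apart for Hpgd (1.73 CPM, nearest 2.79 CPM). PBS replicate 4 stood apart for Nos2 (17.4 CPM, nearest 7.24 CPM) and H2-Ab1 (430 CPM, nearest 213 CPM) and Csf2 (0.801 CPM, nearest 0.301 CPM) and Tnf (19.6 CPM, nearest 10.8 CPM). Tretinoin replicate 3 stood apart for Il1a (14.6 CPM, nearest 3.53 CPM).

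The tretinoin effect differed between tumours with and without ICT, by the interaction term of the edgeR fit (adjusted p below 0.05), in 22 of the named genes. Below 0 the log2 interactions were -2.36 for Cyp26b1, -1.52 for Lgr6, -1.31 for Hspa1a, -1.18 for Dhrs3, -1.04 for Adm, -1.01 for Pitpnc1, -0.85 for Cd101, -0.85 for St6gal1, -0.80 for Bach2, -0.75 for Camk2n1, -0.52 for Smad3, -0.61 for Smyd4, -0.55 for Smg6, -0.64 for Adamts14, -0.54 for Rbpms and -0.42 for Rin2. Above 0 they were 1.15 for Tnfaip6, 0.86 for Sele, 0.53 for Trps1, 0.47 for Arhgap6, 0.41 for Hdac9 and 0.38 for Phf13.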

How the results depend on the processing

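Called interactions numbered 46 (40 below 0 and 6 above 0). They were 85 with DESeq2 (71 and 14), 29 with no filter on low counts (25 below 0), 3 with counts summed over each name series (2 and 1) and 9 with an absolute interaction of at least 1 log2 (8 and 1). Leaving out 1 name series gave 17 (15 and 2), 10 (9 and 1), 21 (18 and 3), 39 (27 and 12), 9 (9 and 0), 31 (28 and 3), 23 (19 and 4) and 8 (8 and 0) for series 1 to 8, in order. With limma voom there were 35 (30 and 5), and 67 (57 and 10) when name series was added to that fit as a random block. The estimated correlation within a series was below 0, at -0.025. The larger count therefore does not show that the calls hold across name series. Leaving out 1 tumour gave 29 to 52 in all, 23 to 43 below 0 and 4 to 11 above 0. Of the 46, 46 were also called by DESeq2 and 35 by limma voom.

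Genes with a tretinoin average effect numbered 193, and 311 with DESeq2, 428 with no filter, 85 with at least 10 counts in every tumour, 115 without name series 3 and 3861 with no fold minimum. For ICT the number was 346, and 566, 772, 210, 536 and 6206 in that order. Called interactions among the tretinoin genes were 4, and 10 with DESeq2, 2 with summed counts and 38 with no fold minimum. Among the ICT genes there was 1, and 5 with DESeq2, 2 with limma voom or the random block, 0 without series 1, 2, 5, 6 or 7, 2 without series 3, 3 without series 4, 32 with no fold minimum and 1 to 2 without 1 tumour. On the linear scale, chosen for these sets after seeing the data, 54 of the 165 genes higher with tretinoin and 66 of the 331 higher with ICT had an interaction below 0. No share of all genes is given beside these counts.

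Signs reversed only in named genes whose interaction was not called. With limma voom, the sign reversed to 0.69 for Krt72, 0.40 for Slc9b2, 0.32 for Nos2, 0.65 for Chil3, 0.16 for Izumo1r, 0.074 for Dio3, 0.093 for Ctsk, 0.31 for Il1a, 0.18 for Csf2 and 0.12 for Tnf. With name series as a random block, the sign reversed to 0.70 for Krt72, 0.41 for Slc9b2, 0.32 for Nos2, 0.63 for Chil3, 0.15 for Izumo1r, 0.075 for Dio3, 0.10 for Ctsk, 0.30 for Il1a, 0.17 for Csf2 and 0.12 for Tnf. Without name series 7, the sign reversed to 0.13 for Krt72, 0.44 for Slc9b2, 0.27 for Dio3, 0.12 for Ptn, -0.0090 for Aldh1a2, -0.034 for Foxp3, 0.29 for Acp5, 0.21 for Ctsk, -0.076 for Ptprc and 0.095 for Mki67. Without name series 8, the sign reversed to 2.12 for Krt72, -0.065 for Atp6v0d2, 0.27 for Chil3, 0.042 for Izumo1r, 0.038 for Dio3, 0.38 for Lrat and -0.036 for Ptprc. On the linear scale, in CPM, the sign reversed to 2.66 for Krt72, 1.68 for Slc9b2, 18.4 for Nos2, 16.2 for F10, 15.6 for Pdcd1lg2, 30.3 for Chil3, 30.5 for Tgm2, 78.5 for Cxcl9, 42.8 for Cd274, 137 for Irf1, 2.07 for Il1a, 1.10 for Csf2 and 0.032 for Tnf. Without name series 3, the sign reversed to -0.000929 for Prr9, -0.15 for Atp6v0d2, 0.34 for Nos2, 0.66 for F10, 0.38 for Pdcd1lg2, 1.99 for Chil3, 0.31 for Izumo1r, 0.052 for Irf1, 0.73 for Il1a, 0.60 for Csf2 and 0.15 for Tnf. Without name series 6, the sign reversed to -0.40 for Prr9, 0.29 for Slc9b2, 0.24 for Nos2, 0.10 for Acp5 and 0.15 for Ctsk. Without name series 4, the sign reversed to 0.52 for Slc9b2, 0.16 for Ptn, -0.10 for Foxp3, 0.36 for Acp5 and 0.32 for Ctsk. Without name series 5, the sign reversed to 0.19 for Slc9b2, 0.21 for Acp5, 0.15 for Ctsk, 0.17 for Csf2 and -0.00139 for Ptprc. Without name series 1, the sign reversed to -0.048 for Atp6v0d2, 0.12 for Dio3 and 0.00136 for Mki67. Without name series 2, the sign reversed to -0.28 for Atp6v0d2, 0.13 for Nos2, 0.19 for Dio3, 0.027 for Tnf and -0.020 for Ptprc. With counts summed over each name series, the sign reversed to 0.032 for Chil3, 0.064 for Izumo1r and 0.020 for Dio3. Leaving out 1 tumour in turn moved values to both sides of 0, over -0.31 to 0.13 for Acp5, -0.048 to 0.40 for Atp6v0d2, -0.54 to 0.76 for Chil3, -0.52 to 0.095 for Csf2, -0.23 to 0.13 for Ctsk, -0.15 to 0.18 for Dio3, -0.076 to 0.17 for Foxp3, -0.75 to 0.26 for Il1a, -0.22 to 0.062 for Izumo1r, -1.81 to 2.70 for Krt72, -0.62 to 0.72 for Nos2, -0.37 to 3.26 for Prr9, -0.091 to 0.21 for Ptprc, -0.30 to 0.25 for Slc9b2 and -0.26 to 0.14 for Tnf. The cause of these changes was not tested.

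No paired analysis was possible because replicate numbers follow accession order and pair no tumours. Name series are nested in treatment, so a difference between series and one between treatments cannot be told apart, and the series count per treatment is 2. Depth limits genes under about 1 CPM, whose intervals can span several log2 units.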

Other observations

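Lists not described above had no called interaction except for Hspa1a among 13 immediate early and heat shock genes. The median log2 interaction was -0.24 over 14 checkpoint genes, -0.16 over 11 T cell genes, -0.15 over 5 NK cell genes and 0.35 over 8 B cell and plasma cell genes. It was 0.07 over 9 eosinophil and mast cell genes, 0.01 over 10 dendritic cell genes, -0.02 over 10 inflammatory cytokine genes, 0.01 over 14 cell cycle genes and 0.01 over 14 clock genes. Over 12 alternative macrophage genes it was -0.01, with 10 higher with tretinoin and 11 higher with ICT on average, against 13.9% and 22% of all genes. Among lists of other tissues it was 0.41 over 8 skeletal muscle genes, -0.21 over 6 fat genes, 0.70 over 5 keratinocyte genes and 0.25 over 5 erythrocyte genes, and their summed CPM overlapped between the groups.

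Some genes with a called interaction lie beside others of interest, found after their values were seen. Smg6 ends 117 bases from the end of Hic1 on chromosome 11, on the opposite strand, and Smyd4 lies 183985 bases from Smg6. Fam188b, with an interaction of -0.51, lies 28340 bases from Inmt. Whether reads of close or overlapping genes were kept apart by strand is not given in the sources used here.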
